A study of Caenorhabditis elegans with 36 samples.

Results

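The genes described here are the 6 MCM helicase subunits of Caenorhabditis elegans (mcm-2, mcm-3, mcm-4, mcm-5, mcm-6 and mcm-7) together with the sliding clamp pcn-1 and both ribonucleotide reductase genes, rnr-1 and rnr-2. Members were the probe sets annotated with one of these 9 symbols and no other. All 9 genes were measured, out of 17118 genes with a probe set of their own symbol alone, by 11 of the 22548 probe sets tested. mcm-3 and mcm-7 had 2 probe sets each and the other genes 1 each. Of the 11, 10 carry the array's mark for probes that can match more than 1 transcript, and the mcm-6 probe set does not.

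The study hybridized total RNA of whole, synchronized first-stage (L1) larvae to a single-colour Affymetrix array, 1 sample an array and 36 arrays in all. Larvae of 4 genotypes were irradiated with ultraviolet light (UV), starved or left untreated, which gave 12 groups. The genotypes were daf-2, a mutant of the insulin/IGF-1 receptor gene, daf-16, a mutant of the FoxO transcription factor gene that acts downstream of that receptor, the daf-2;daf-16 double mutant, and N2, the wild type. Each group had 3 arrays, except that starved daf-16 had 2 and starved daf-2;daf-16 had 4. The label text, the same for every sample, says that larvae had food for 4 h before UV and were collected 6 h after treatment. Neither the mutant alleles nor the UV dose nor the way larvae were starved is stated in the sources used here. Whether replicate arrays stem from separate cultures is not in the labels either, and p-values below therefore measure only the spread between these samples, which may be technical.

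MCM-2 to MCM-7 form the ring-shaped helicase that is loaded onto replication origins before S phase and unwinds DNA once replication starts. PCN-1, the worm PCNA, is the clamp that holds DNA polymerases on the template, and ribonucleotide reductase makes the deoxynucleotides that polymerases use. In worms that hatch without food, the blast cells of the L1 larva do not divide, and feeding lets them enter the cell cycle. Lesions made by UV stall DNA polymerases as well as RNA polymerase.

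Some facts of the arrays bear on what follows. The 9-gene mean (log2) of daf-2;daf-16 starved replicate 4 was 7.14, against 7.60, 7.62 and 7.69 in its group, and that of daf-2;daf-16 untreated replicate 1 was 9.35, against 9.57 and 9.63. daf-16 UV replicate 3 differed from the other arrays of its group over all probe sets with SDs of 0.327 and 0.394, where daf-2;daf-16 untreated replicates 2 and 3 differed from each other with an SD of 0.152. Without these 3 arrays, all 11 probe sets were still called lower under starvation in daf-2;daf-16, and the counts of the other comparisons that use them are given beside each result. A probe set of daf-16 had group means of 3.43 to 3.72 in the daf-16 and daf-2;daf-16 groups and 4.03 to 4.59 in the daf-2 and N2 groups, a low signal everywhere. None of the other daf-16 probe sets had a lower mean in untreated daf-16 or daf-2;daf-16 larvae than in untreated N2 larvae. A daf-2 transcript level checks no label here, because the alleles are not given.

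In untreated larvae 1 member was called between strains. A member is called when limma's adjusted p over all 22548 probe sets was under 0.05. Over 4 comparisons of untreated strains the only call was rnr-2, the small subunit of ribonucleotide reductase, in daf-2 against N2. It had log2 signals of 9.94, 9.88 and 9.86 in untreated daf-2 larvae, against 10.04, 10.19 and 10.19 in untreated N2 larvae, and fell by 0.24 (SE 0.07, adjusted p = 0.018). The arrays did not overlap, and the call was lost without any 1 of 4 of these 6 arrays. In that comparison 16.8% of all probe sets were called, 6.81% as lower, and the members' median was 0.01. The other comparisons called 0 members by limma's adjusted p. They had 2 members in daf-16 against N2, 0 in daf-2 against daf-2;daf-16 and 1 in daf-2;daf-16 against N2 at an unadjusted p under 0.05. In daf-16 against N2 the members' median was -0.16, with 10 of 11 values below 0. All untreated daf-16 arrays lay below all untreated N2 arrays for 6 of 11 probe sets, an order that 9.32% of all probe sets had. Over all probe sets 1.43%, 11.6% and 10.5% were called in the same 3 comparisons. Without the 3 arrays that stood apart, 4 members were called in daf-2;daf-16 against N2 and 1 in daf-2 against daf-2;daf-16. The intervals are wide enough to hold differences of some size: that of mcm-6 in daf-16 against N2 ran from -0.51 to -0.04, and that of pcn-1 in daf-2;daf-16 against N2 from 0.09 to 0.58.

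**Figure D1:**
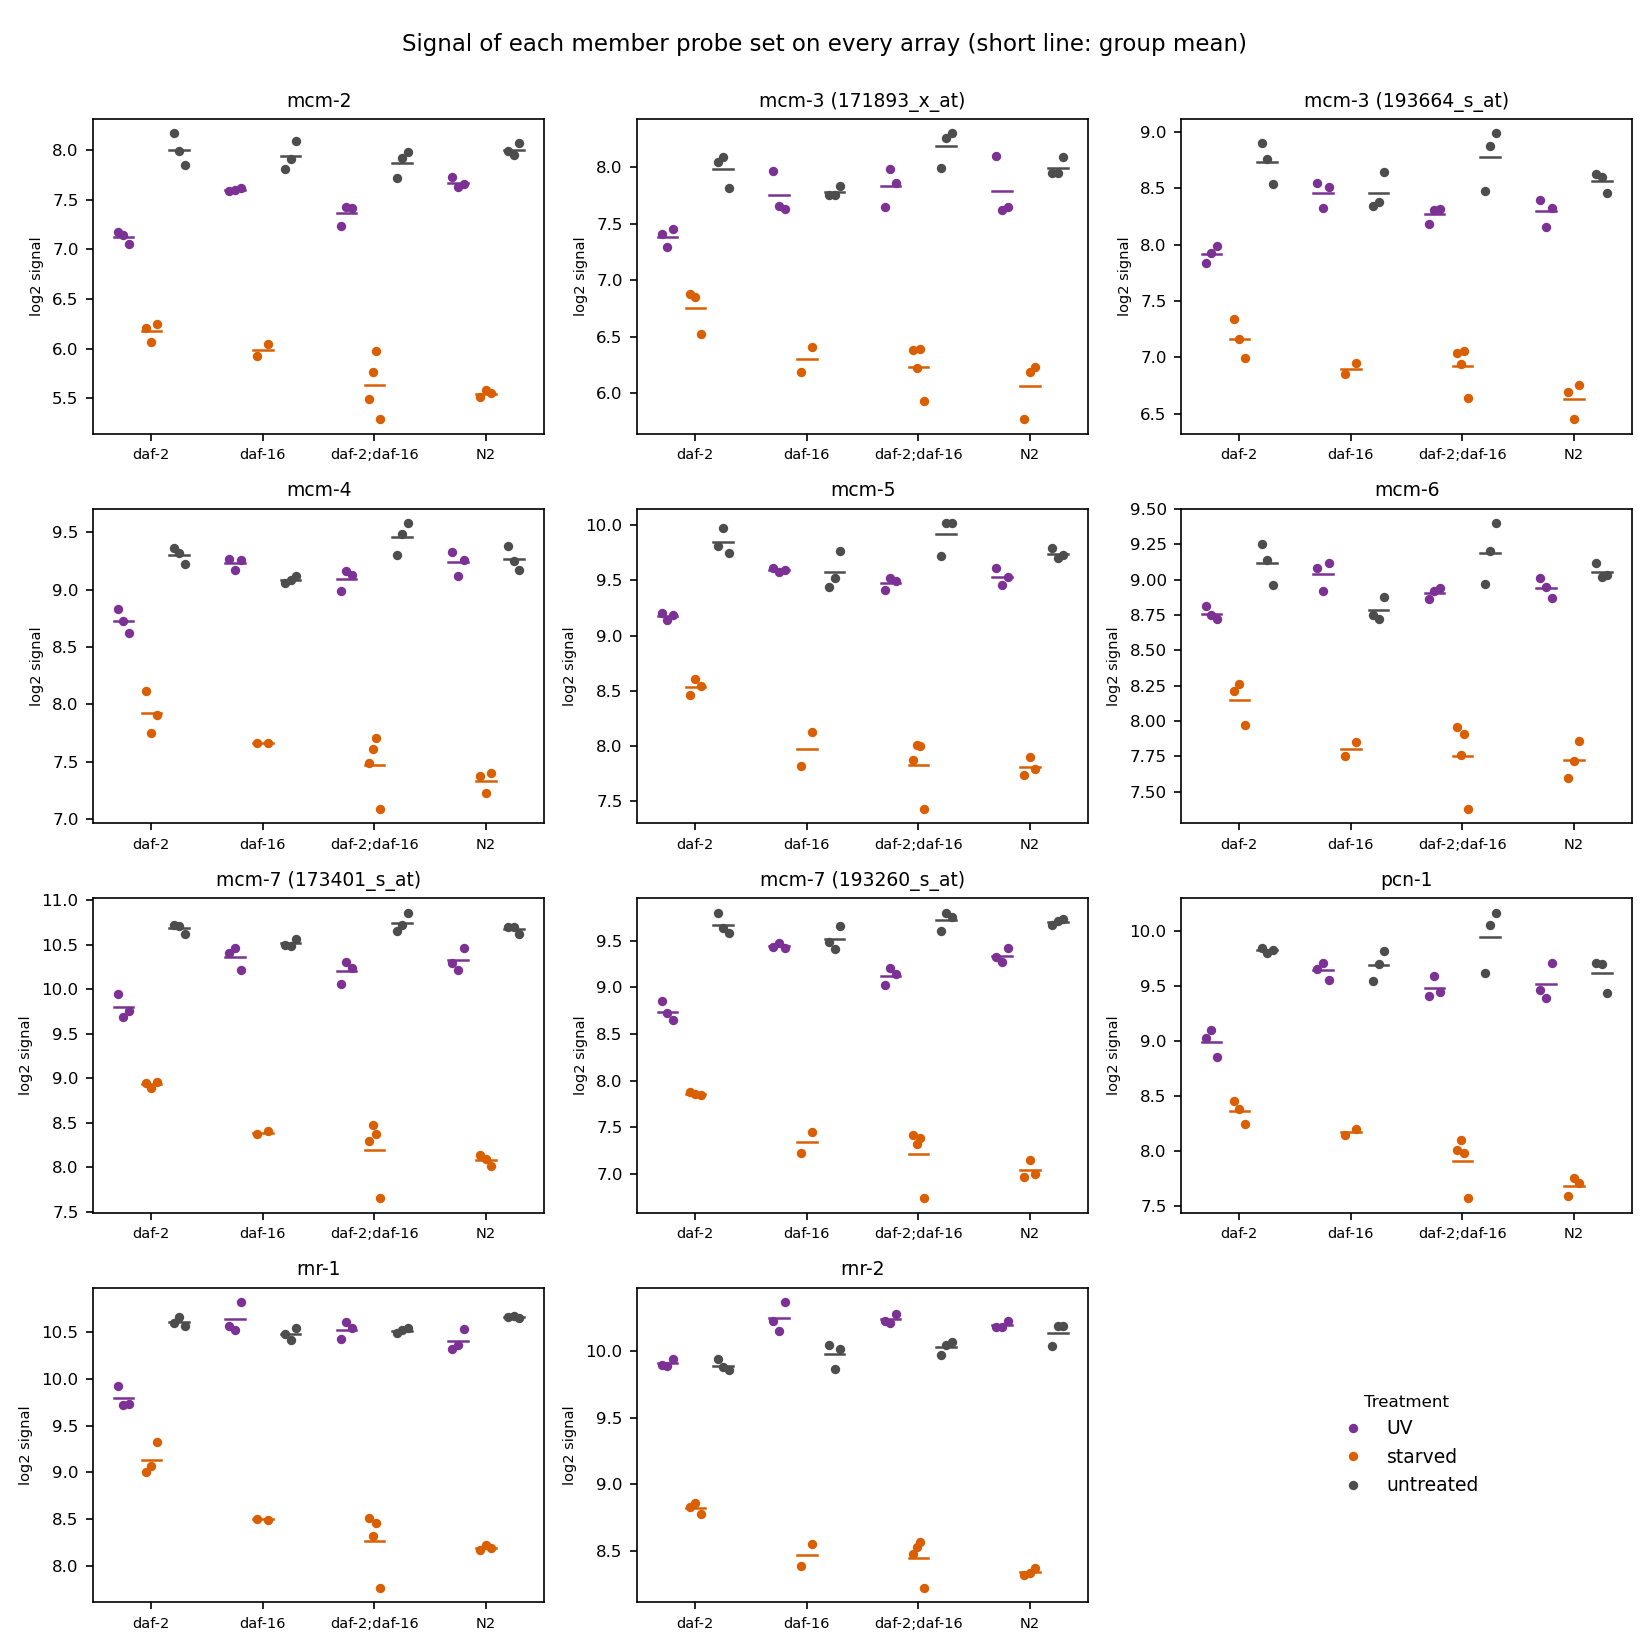
Log2 signal (vertical axis) of each of the 11 probe sets in every array, 1 panel a probe set, with the strains along the horizontal axis and UV-treated, starved and untreated arrays side by side within each strain (short lines, group means). In every panel and strain the starved arrays lie below the untreated ones, and the starved daf-2 arrays lie above the starved N2 arrays.

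Starvation lowered all 9 genes in all 4 strains. In N2 larvae the fall was 2.52-fold for mcm-6 and 6.33-fold for mcm-7, the ends of the range, and all 11 probe sets were called. Of all probe sets, 24.7% were called lower in that comparison. The members' median log2 change was -1.93, against -0.03 over all probe sets. RNA came from whole larvae, so fewer cells that express a gene and less of its RNA per cell cannot be told apart.

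Among the helicase subunits, mcm-7 is measured by 2 probe sets. The one marked 193260_s_at had 6.97, 7.15 and 7.0 in starved N2 larvae, against 9.67, 9.71 and 9.73 in untreated N2 larvae, a log2 change of -2.66 (SE 0.11, adjusted p = 1.4e-19). The other, 173401_s_at, had 8.14, 8.09 and 8.02, against 10.70, 10.70 and 10.62, and changed by -2.59 (SE 0.12). On both probe sets every starved array was far below every untreated one. mcm-2, whose product also binds histones in yeast and human cells, had 5.51, 5.58 and 5.55 in starved N2 larvae, against 7.99, 7.95 and 8.07 in untreated N2 larvae. The starved values lie below the array medians of 5.79 to 5.88. mcm-2 fell by 2.46 (SE 0.12, adjusted p = 2.3e-18).

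The other helicase genes had smaller changes in N2. mcm-4, which in human cells encodes a subunit of the catalytic core together with MCM6 and MCM7, had 7.38, 7.23 and 7.40 in starved N2 larvae, against 9.38, 9.25 and 9.17 in untreated N2 larvae. mcm-5, whose product in yeast and flies forms the gate of the ring with MCM2, had 7.74, 7.90 and 7.79, against 9.79, 9.70 and 9.73. The changes of both were -1.93 (SE 0.11 each), and those of both probe sets of mcm-3, the ring neighbour of MCM-5, were -1.93 as well (SE 0.14 and 0.12). mcm-6 had 7.60, 7.72 and 7.86 in starved N2 larvae, against 9.12, 9.02 and 9.03 in untreated N2 larvae. Its change of -1.33 (SE 0.11, 95% interval -1.57 to -1.10) was the smallest of the 11 in size. A difference between the changes of genes was not tested, and the probes of different genes may respond to RNA with different slopes.

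The clamp and the reductase moved the same way. pcn-1 had 7.59, 7.76 and 7.71 in starved N2 larvae, against 9.71, 9.70 and 9.44 in untreated N2 larvae, a change of -1.93 (SE 0.12). rnr-1, the large subunit of ribonucleotide reductase that carries the active site, had 8.17, 8.22 and 8.19, against 10.66, 10.67 and 10.65, and fell by 2.46 (SE 0.12, adjusted p = 2.0e-18). rnr-2 had 8.32, 8.33 and 8.37, against 10.04, 10.19 and 10.19, and fell by 1.80 (SE 0.07, adjusted p = 6.4e-20). In none of these genes did a starved array reach an untreated one.

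The mutants gave the same call for every probe set, with no overlap between starved and untreated arrays of a strain. The median log2 change over the 11 was -1.46 in daf-2 (range -1.82 to -0.97), -1.56 in daf-16 (-2.17 to -0.98) and -2.03 in daf-2;daf-16 (-2.55 to -1.44). Of all probe sets, 19.7%, 24.2% and 26.8% were called lower in the same 3 strains. The largest adjusted p of a member in any strain was 5.1e-08, for mcm-6 in daf-16. In each strain mcm-6 had the smallest change in size of the 11. The largest was that of an mcm-7 probe set in daf-16, daf-2;daf-16 and N2, and that of mcm-2 in daf-2, where mcm-2 changed by -1.82 (SE 0.12) and mcm-7 (193260_s_at) by -1.81 (SE 0.11).

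Levels of other genes moved with starvation too. The molting cycle list, 13 of 13 genes measured, averaged 5.19 to 5.30 over the arrays of starved N2 larvae, against 10.42 to 10.54 in untreated N2 larvae. In starved daf-2 larvae it averaged 5.17 to 5.45, against 9.62 to 9.71 in untreated daf-2 larvae. The germline list, 10 of 10 genes measured, averaged 6.46 to 6.48 in starved N2 larvae, against 6.51 to 6.58 in untreated N2 larvae, with nos-2 its dimmest gene. Of its genes 2 were called higher and 3 lower. The neuronal list (7 genes) averaged 9.17 to 9.38 in starved N2 larvae, against 8.38 to 8.39 in untreated N2 larvae. The body wall muscle list (5 genes) averaged 11.55 to 11.68 in starved N2 larvae, against 10.99 to 11.04 in untreated N2 larvae, with 4 of 5 called higher. Seam cells are blast cells of the epidermis, and 6 of the 8 genes of their list were measured. These averaged 7.96 to 7.99 in starved N2 larvae, against 8.63 to 8.76 in untreated N2 larvae, with 3 called higher and 3 lower. Their median log2 change was -0.03, so the average does not show a common fall. The brightest gene of the list was wrt-2 at 12.33 in untreated N2 larvae, and grd-10 at 10.13 in starved N2 larvae. In daf-2 the seam cell list averaged 8.18 to 8.23 in starved larvae, against 8.84 to 8.90 in untreated larvae. The mesoblast list (3 genes) averaged 5.51 to 5.70 in starved N2 larvae, against 5.18 to 5.24 in untreated ones, with 2 called higher and 0 lower. These averages lie below the array medians of 5.79 to 5.88. The intestine list (6 genes) averaged 10.35 to 10.47 in starved N2 larvae, against 10.15 to 10.28 in untreated ones, with 3 called higher and 3 lower. The array's control pairs for RNA quality did not move together. The 3′ minus 5′ difference of Gapdh was 0.33 to 0.62 in starved N2 larvae, against 0.73 to 0.91 in untreated N2 larvae, and 0.44 to 0.51 in starved daf-2 larvae, against 0.29 to 0.55 in untreated daf-2 larvae. That of another of the 9 pairs was 1.64 to 1.84 in starved N2 larvae, against 1.05 to 1.16 in untreated N2 larvae. The files hold no detection call, so no marker can be said to be absent, and the part of these values in the members' changes was not tested.

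**Figure D2:**
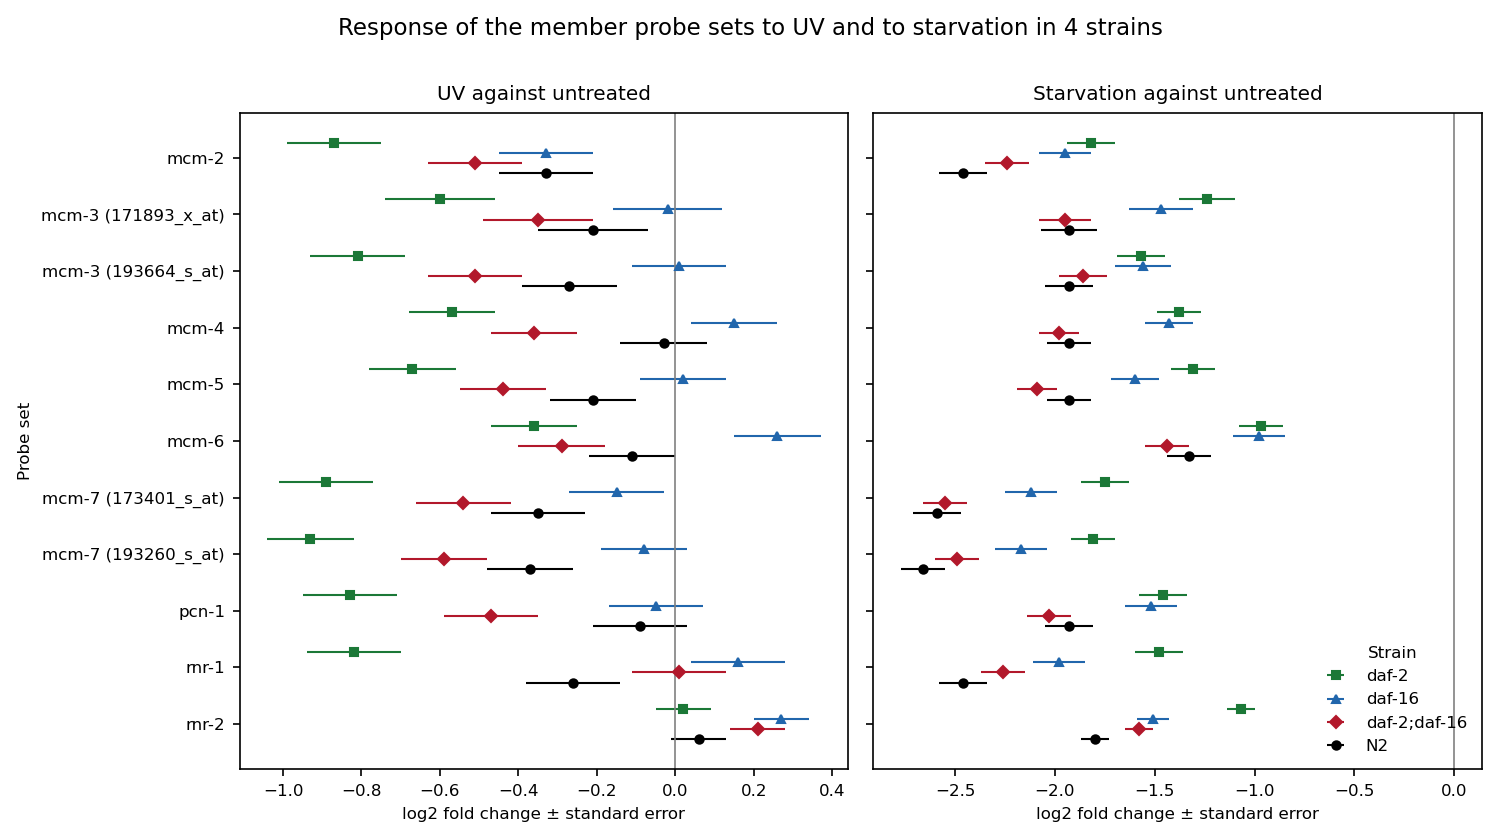
Log2 fold change (horizontal axis) of each probe set with its standard error (bars), for UV against untreated (left) and starvation against untreated (right), with 1 symbol and colour a strain. All starvation changes lie between -2.66 and -0.97, while UV changes lie between -0.93 and 0.27 and differ by strain.

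Starved daf-2 larvae had the highest mean of all 11 probe sets among the starved strains. mcm-7 (193260_s_at) had 7.88, 7.86 and 7.85 in starved daf-2 larvae, against 7.42, 7.32, 7.39 and 6.74 in starved daf-2;daf-16 larvae and 6.97, 7.15 and 7.0 in starved N2 larvae. rnr-1 had 9.0, 9.07 and 9.32 in starved daf-2 larvae, against 8.51, 8.32, 8.46 and 7.76 in starved daf-2;daf-16 larvae and 8.17, 8.22 and 8.19 in starved N2 larvae. Every daf-2 array was above every array of the other 2 strains for both genes. The same separation held for 11 of 11 probe sets against starved N2, where 11.9% of all probe sets had all daf-2 arrays above. It held for 11 of 11 against starved daf-16 (20.8% of all) and for 10 of 11 against starved daf-2;daf-16 (13.9% of all). mcm-3 (193664_s_at) was the one that overlapped, with 7.34, 7.16 and 6.99 in starved daf-2 larvae, against 7.04, 6.94, 7.06 and 6.64 in starved daf-2;daf-16 larvae.

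The difference between the starvation responses was tested as an interaction. Set against N2, the response of daf-2 was smaller in size for 8 of 11 probe sets. Of all probe sets, 14.8% were called in that interaction, 5.96% upwards, as the members were. The differences were 0.98 for rnr-1 (SE 0.16, adjusted p = 5.6e-05), 0.86 and 0.84 for mcm-7 (193260_s_at and 173401_s_at), 0.72 for rnr-2, 0.70 for mcm-3 (171893_x_at), 0.63 for mcm-2, 0.62 for mcm-5 and 0.55 for mcm-4. The 3 not called were pcn-1 at 0.46 (95% interval 0.12 to 0.81), mcm-6 at 0.37 (0.03 to 0.70) and mcm-3 (193664_s_at) at 0.36 (-0.00 to 0.72). Without N2 starved replicate 1, mcm-3 (171893_x_at) had 0.55 and was not called (adjusted p = 0.056).

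Set against daf-2;daf-16, the starvation response of daf-2 was smaller in size for 9 of 11 probe sets, in a comparison that called 12.8% of all probe sets and 5.25% upwards. mcm-7 (173401_s_at) differed by 0.80, mcm-5 by 0.78 and rnr-1 by 0.78. mcm-3 (171893_x_at) differed by 0.72, mcm-7 (193260_s_at) by 0.69, mcm-4 by 0.60, pcn-1 by 0.57, rnr-2 by 0.51 and mcm-6 by 0.47. The 2 not called were mcm-2 at 0.42 (95% interval 0.09 to 0.75) and mcm-3 (193664_s_at) at 0.29 (-0.06 to 0.64). These interactions and those against N2 share the daf-2 arrays, so they are not independent of each other. Without daf-2;daf-16 starved replicate 4, the lowest of its group for 11 of 11 probe sets, the count was 8. Without daf-2;daf-16 untreated replicate 2 or 3 it was 7. Without all 3 arrays that stood apart it was 9.

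Starved daf-16 larvae had means between those of starved daf-2 and starved N2 larvae for 11 of 11 probe sets. All daf-16 starved arrays were above all N2 starved arrays for 8 of 11 probe sets, where 21% of all probe sets had that order. mcm-2 had 5.93 and 6.05 in starved daf-16 larvae, against 5.51, 5.58 and 5.55 in starved N2 larvae. The interaction of starvation with daf-16 against N2 was positive for all 11 probe sets, at 0.28 to 0.51. By limma's adjusted p it called 0 of them, while 9 had an unadjusted p under 0.05 and 3% of all probe sets were called. Without the 3 arrays that stood apart, none of which is in this comparison, 5 members were called. Its largest difference was that of mcm-2, at 0.51 (95% interval 0.15 to 0.87).

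UV lowered 8 of the 9 genes in daf-2 larvae. Of the 11 probe sets, 10 were called lower, with a median log2 change of -0.81 against 0.02 over all probe sets, in a comparison with 12.6% of all probe sets called lower. mcm-7 (193260_s_at) had 8.85, 8.72 and 8.65 in UV-treated daf-2 larvae, against 9.79, 9.63 and 9.58 in untreated daf-2 larvae, a 1.91-fold fall (log2 change -0.93, SE 0.11, adjusted p = 6.3e-08). mcm-2 had 7.18, 7.15 and 7.05, against 8.17, 7.99 and 7.85, and fell by 0.87 (SE 0.12). Neither gene had a UV array as high as its lowest untreated array.

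The remaining helicase genes of daf-2 changed by -0.81 and -0.60 (mcm-3, 193664_s_at and 171893_x_at), -0.67 (mcm-5), -0.57 (mcm-4) and -0.36 (mcm-6, SE 0.11, adjusted p = 0.018). pcn-1 had 9.03, 9.10 and 8.86 in UV-treated daf-2 larvae, against 9.85, 9.80 and 9.83 in untreated daf-2 larvae, and fell by 0.83 (SE 0.12, adjusted p = 1.6e-06). rnr-1 had 9.92, 9.72 and 9.73, against 10.60, 10.66 and 10.57, and fell by 0.82 (SE 0.12, adjusted p = 1.1e-06). In all of these genes the 3 UV arrays lay below the 3 untreated arrays. The call of mcm-6 was lost without 1 of 4 of the 6 arrays, with changes of -0.29 to -0.35.

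In daf-2;daf-16 larvae UV lowered 7 of the 11 probe sets and raised 1. Of all probe sets 7.58% were called lower and 7.03% higher, and the members' median was -0.44. mcm-7 (193260_s_at) had 9.02, 9.21 and 9.14 in UV-treated daf-2;daf-16 larvae, against 9.60, 9.80 and 9.75 in untreated daf-2;daf-16 larvae, and fell by 0.59 (SE 0.11, adjusted p = 2.9e-04). pcn-1 had 9.41, 9.59 and 9.45, against 9.62, 10.06 and 10.17, and fell by 0.47 (SE 0.12, adjusted p = 0.006). For both genes the untreated replicate 1 was the lowest untreated array and still lay above all UV arrays. mcm-2 and mcm-3 (193664_s_at) changed by -0.51, mcm-7 (173401_s_at) by -0.54, mcm-5 by -0.44 and mcm-4 by -0.36. mcm-3 (171893_x_at) at -0.35 and mcm-6 at -0.29 had no overlap between groups but were not called (adjusted p = 0.092 for both). Without untreated replicate 1 both were called, at -0.45 (adjusted p = 0.043) and -0.40 (adjusted p = 0.02). Without the 3 arrays that stood apart 9 were called lower and 0 higher, and without untreated replicate 3 there were 5 calls in all.

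In N2 larvae 3 of 11 probe sets were called lower and 0 higher, in a comparison that called 15.2% of all probe sets lower. In either direction the members were called about as often as all probe sets, of which 28.8% were called. The members' median was -0.21, against 0.03 over all probe sets, with 10 of 11 values below 0. mcm-7 (193260_s_at) had 9.32, 9.27 and 9.42 in UV-treated N2 larvae, against 9.67, 9.71 and 9.73 in untreated N2 larvae, and fell by 0.37 (SE 0.11, adjusted p = 0.013). mcm-7 (173401_s_at) fell by 0.35 and mcm-2 by 0.33 (adjusted p = 0.027 and 0.03). The values of the other 8 lay between -0.27 and 0.06, with an interval for pcn-1 of -0.34 to 0.16 and for mcm-4 of -0.25 to 0.20. The 3 calls were lost without N2 UV replicate 2, and 1 call was left without N2 untreated replicate 1. Without the 3 arrays that stood apart, none of which is of N2, 6 were called.

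In daf-16 larvae 1 probe set was called lower and 1 higher, where 7.76% and 11.3% of all probe sets were. mcm-2 had 7.59, 7.60 and 7.62 in UV-treated daf-16 larvae, against 7.81, 7.91 and 8.09 in untreated daf-16 larvae, and fell by 0.33 (SE 0.12, adjusted p = 0.042). The members' median was 0.01, and mcm-7 (193260_s_at) had 9.43, 9.47 and 9.42, against 9.48, 9.41 and 9.66, a change of -0.08 (95% interval -0.31 to 0.16). mcm-6, at 0.26 (0.03 to 0.49), was higher in every UV array but not called. Without daf-16 untreated replicate 2 or daf-16 UV replicate 3, 0 of the 11 were called. The counts were 1 lower and 1 higher without the 3 arrays that stood apart.

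rnr-2 is described by itself under UV, a choice made after its values were seen. It had 9.90, 9.89 and 9.94 in UV-treated daf-2 larvae, against 9.94, 9.88 and 9.86 in untreated daf-2 larvae, a change of 0.02 (95% interval -0.14 to 0.17), the only member of that strain not called. In daf-16 it had 10.23, 10.15 and 10.37 in UV-treated larvae, against 10.05, 9.87 and 10.02 in untreated larvae, and rose by 0.27 (SE 0.07, adjusted p = 0.0076). In daf-2;daf-16 it had 10.23, 10.21 and 10.28, against 9.97, 10.05 and 10.07, and rose by 0.21 (SE 0.07, adjusted p = 0.048), a call lost without any 1 of these 6 arrays. In N2 it had 10.18, 10.18 and 10.23, against 10.04, 10.19 and 10.19, a change of 0.06 (-0.10 to 0.21). The difference between rnr-2 and the other members was not tested.

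rnr-1, the other reductase subunit, differed between strains under UV. It had 10.43, 10.61 and 10.54 in UV-treated daf-2;daf-16 larvae, against 10.49, 10.52 and 10.54 in untreated daf-2;daf-16 larvae, a change of 0.01 (95% interval -0.23 to 0.25). Its change in daf-2 was lower than that by 0.83 (SE 0.16, adjusted p = 9.0e-04), the 1 member called in that interaction, in which 5.45% of all probe sets were called and 2.75% lower. The count was also 1 without the 3 arrays that stood apart. In N2 rnr-1 had 10.32, 10.36 and 10.53 in UV-treated larvae, against 10.66, 10.67 and 10.65 in untreated larvae, a change of -0.26 that was not called (adjusted p = 0.1). In daf-16 the change was 0.16 (-0.08 to 0.40).

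Set against N2, the UV response of daf-2 was lower for 4 probe sets, in a comparison that called 4.66% of all probe sets and 2.57% lower. They were pcn-1 at -0.74 (SE 0.17, adjusted p = 0.0064), rnr-1 at -0.57, mcm-7 (193260_s_at) at -0.56 and mcm-4 at -0.55. The other 7 had values of -0.55 to -0.04, all negative, with adjusted p from 0.052 (mcm-2) to 0.93 (rnr-2). The count rested on single arrays: it was 1 without any 1 of N2 untreated replicate 2 or 3, N2 UV replicate 3, daf-2 untreated replicate 1 or 2 or daf-2 UV replicate 2 or 3, and 2 without N2 untreated replicate 1. It was 8 without the 3 arrays that stood apart, which belong to other strains. The same interaction of daf-16 against N2 called 0 members by limma's adjusted p, with 3 at an unadjusted p under 0.05 and 1.85% of all probe sets called, and also called 0 without the 3 arrays that stood apart. Of those called, 56.4% were higher in daf-16, or 39.1% after quantile normalization.

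The levels after UV were also set side by side. For 11 of 11 probe sets every UV-treated daf-2 array lay below every UV-treated N2 array, an order that 15% of all probe sets had. The same held for 11 of 11 against UV-treated daf-16 (15.5% of all) and against UV-treated daf-2;daf-16 (13.2% of all). mcm-5 had 9.20, 9.14 and 9.19 in UV-treated daf-2 larvae, against 9.41, 9.52 and 9.49 in UV-treated daf-2;daf-16 larvae, 9.61, 9.58 and 9.59 in UV-treated daf-16 larvae and 9.61, 9.46 and 9.53 in UV-treated N2 larvae. rnr-2 kept to this order with its 3 UV-treated daf-2 arrays at 9.89 to 9.94 and the lowest UV-treated array of the other strains at 10.15. Its untreated daf-2 arrays, at 9.86 to 9.94, already lay below those of N2 (10.04 to 10.19) and daf-2;daf-16 (9.97 to 10.07). They overlapped those of untreated daf-16 (9.87 to 10.05).

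The molting cycle list moved under UV as well. It averaged 6.46 to 7.35 in UV-treated daf-2 larvae, against 9.62 to 9.71 in untreated daf-2 larvae, and 10 of 13 genes were called lower. It averaged 9.18 to 9.50 in UV-treated daf-2;daf-16 larvae, against 9.54 to 10.30 in untreated ones, with 1 of 13 called lower. It averaged 8.95 to 10.08 in UV-treated daf-16 larvae, against 10.45 to 10.58 in untreated ones, and 8.55 to 9.04 in UV-treated N2 larvae, against 10.42 to 10.54 in untreated ones, with 7 and 12 of 13 called lower. The seam cell list (6 genes) averaged 8.19 to 8.29 in UV-treated daf-2 larvae, against 8.84 to 8.90 in untreated ones, with 3 of 6 called lower. It averaged 8.54 to 8.69 in UV-treated daf-2;daf-16 larvae, against 8.78 to 8.81 in untreated ones, with 0 called higher and 2 lower. In N2 it averaged 8.49 to 8.57 in UV-treated larvae, against 8.63 to 8.76 in untreated ones. Its genes did not move together in N2, where 2 were called higher and 3 lower. In daf-16 its ranges overlapped, with 8.60 to 8.82 in UV-treated larvae, against 8.57 to 8.82 in untreated larvae, and 2 were called higher and 1 lower. The neuronal list averaged 8.11 to 8.18 in UV-treated daf-2 larvae, against 8.52 to 8.55 in untreated ones, and 7.79 to 7.96 in UV-treated N2 larvae, against 8.38 to 8.39 in untreated ones, with 4 and 5 of 7 called lower. The germline list averaged 6.60 to 6.71 in UV-treated daf-2 larvae, against 6.50 to 6.61 in untreated ones, with 1 of 10 called higher and 0 lower. In N2 it averaged 6.64 to 6.71 in UV-treated larvae, against 6.51 to 6.58 in untreated ones, with 3 called higher and 1 lower. The mesoblast list averaged 5.24 to 5.53 in UV-treated daf-2 larvae, against 5.34 to 5.52 in untreated ones, with 0 of 3 called. In N2 it averaged 5.38 to 5.52 in UV-treated larvae, against 5.18 to 5.24 in untreated ones, with 2 of 3 called higher. The part of these lists in the members' changes was not tested.

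**Figure D3:**
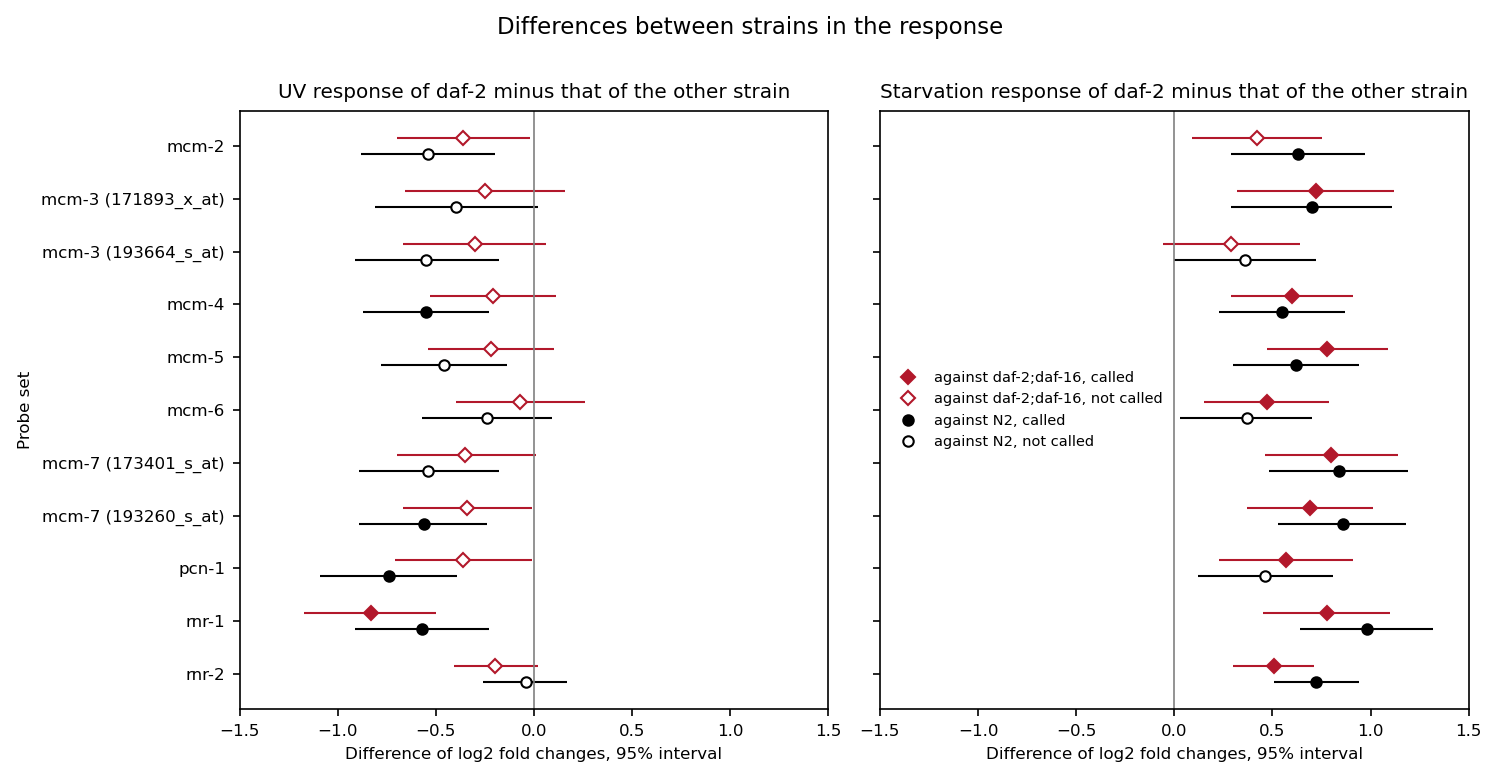
Difference between the response of daf-2 and that of daf-2;daf-16 (diamonds) or N2 (circles) for each probe set, on the log2 scale with 95% intervals, for UV (left) and starvation (right), filled where the adjusted p was under 0.05. All UV differences lie at or below -0.04 and all starvation differences at or above 0.29. The differences of one panel share the daf-2 arrays, and both panels share the untreated arrays.

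UV-treated larvae had a higher signal of every member than starved larvae of the same strain, without overlap. In daf-2 the median log2 difference of UV against starvation was 0.76 (range 0.61 to 1.09), in daf-16 1.61, in daf-2;daf-16 1.65 and in N2 1.85. All 11 probe sets were called higher in each strain, where 20.9%, 23.8%, 24.2% and 30.2% of all probe sets were, and all 11 were called without the 3 arrays that stood apart as well. mcm-7 (173401_s_at) had 9.95, 9.69 and 9.75 in UV-treated daf-2 larvae, against 8.95, 8.89 and 8.96 in starved daf-2 larvae, a 1.82-fold difference. In N2 it had 10.29, 10.22 and 10.46 in UV-treated larvae, against 8.14, 8.09 and 8.02 in starved larvae, a 4.72-fold difference. Whether the gap between the treatments differs between strains was not tested by itself. The UV and starvation contrasts of a strain use the same untreated arrays and are given side by side for that reason.

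Across the 12 groups the 11 probe sets followed one another closely. Starved N2 was the lowest group for all 11. The highest was untreated daf-2;daf-16 for 8, untreated N2 for mcm-2 and rnr-1, and UV-treated daf-16 for rnr-2. Between the highest and lowest group means lay 1.47 log2 units for mcm-6 and 2.68 for mcm-7 (193260_s_at), the ends of the range. The correlation of each with the mean of the others, over 12 group means that share the same arrays, was 0.963 for rnr-2 and 0.989 to 0.997 for the rest. The groups include large changes common to many genes, and 4.35% of all probe sets correlated over 0.95 with the members' mean.

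The non-member probe sets most like the members by that measure were ctf-4 (r = 0.998), whose product links the helicase to DNA polymerase alpha in yeast, and the mitotic kinase gene cdk-1 (r = 0.997). The cyclin gene cyb-3, the condensin II gene hcp-6, pid-3 and R05H5.3 followed, at 0.995 each, over the same 12 group means. cdk-1 averaged 8.95 in UV-treated daf-2 larvae, 7.98 in starved and 9.87 in untreated daf-2 larvae, against 9.52, 7.24 and 9.90 in the same groups of N2.

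Other genes of DNA replication were described by lists with 69 genes, of which 58 were measured. Starvation lowered 42 of the 58 in daf-2, 43 in daf-16, 45 in daf-2;daf-16 and 44 in N2, and raised 1, 7, 5 and 6. Of all probe sets, 19.7%, 24.2%, 26.8% and 24.7% were called lower in these strains and 23.3%, 27%, 27.7% and 28.3% higher. All 8 genes of the origin licensing list, the ORC subunits, cdc-6, cdt-1 and gmn-1, were called lower in each of the strains. In N2, crn-1, which encodes the flap nuclease of lagging-strand maturation, changed by -2.35 (SE 0.12), the primase gene pri-1 by -1.88 (SE 0.11), the thymidylate synthase gene tyms-1 by -1.86 (SE 0.10) and umps-1, of pyrimidine synthesis, by -1.82 (SE 0.10). The list of E2F and G1/S control was mixed, with 7 of 16 lower and 4 higher in N2. So was that of the clamp loader and RPA, with 5 of 8 lower and 2 higher in N2, the highest change being 1.22. The list medians were -0.87 for origin licensing, -1.46 for nucleotide supply, -0.97 for the clamp loader and RPA, -1.22 for helicase activation, -1.18 for polymerases and -0.16 for E2F and G1/S control, beside -1.93 for the members and -0.03 for all probe sets.

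Under UV, 30 of the 58 were called lower and 1 higher in daf-2, 2 lower and 5 higher in daf-16, 23 lower and 0 higher in daf-2;daf-16, and 15 lower and 4 higher in N2. Of all probe sets, 12.6%, 7.76%, 7.58% and 15.2% were called lower in the same order of strains, and 12.3%, 11.3%, 7.03% and 13.6% higher, so the counts of daf-16 were below the shares over all probe sets in both directions. In daf-2, 8 of 10 helicase activation genes and 8 of 11 polymerase, primase and lagging-strand genes were called lower, with crn-1 at -0.95 (SE 0.12), the cyclin D gene cyd-1 at -0.85 (SE 0.15), pri-1 at -0.79 (SE 0.11) and tyms-1 at -0.72 (SE 0.10). tyms-1 had 9.20, 9.15 and 9.17 in UV-treated daf-2 larvae, against 9.90, 9.93 and 9.86 in untreated daf-2 larvae. In N2, rpa-4 changed by -1.16 (SE 0.27), pyr-1 by -0.74 (SE 0.20) and umps-1 by -0.67 (SE 0.10). In N2 and daf-16, cki-2, one of the worm's cyclin-dependent kinase inhibitor genes, was called higher, at 0.71 and 0.70 (SE 0.12 each). Also in daf-16, ctf-18 changed by 0.52 (SE 0.14), pole-2 by 0.44 (SE 0.10) and umps-1 by -0.43 (SE 0.10). In the interaction of UV with daf-2 against N2, limma's adjusted p called 1 of the 58 lower and 1 higher, beside 4.66% of all probe sets in either direction. There 19 of the 58 had an unadjusted p under 0.05, and their median was -0.20, against -0.01 over all probe sets. In the interaction of starvation with daf-2 against N2, 14 were higher and 4 lower, beside 14.8% of all. Set against daf-2;daf-16, 0 of the 58 were called by limma's adjusted p in the UV interaction, with 6 at an unadjusted p under 0.05, beside 5.45% of all probe sets. In the starvation interaction 13 were higher and 1 lower, beside 12.8% of all. The list counts called by limma's adjusted p in both UV interactions were below the share over all probe sets.

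**Figure D4:**
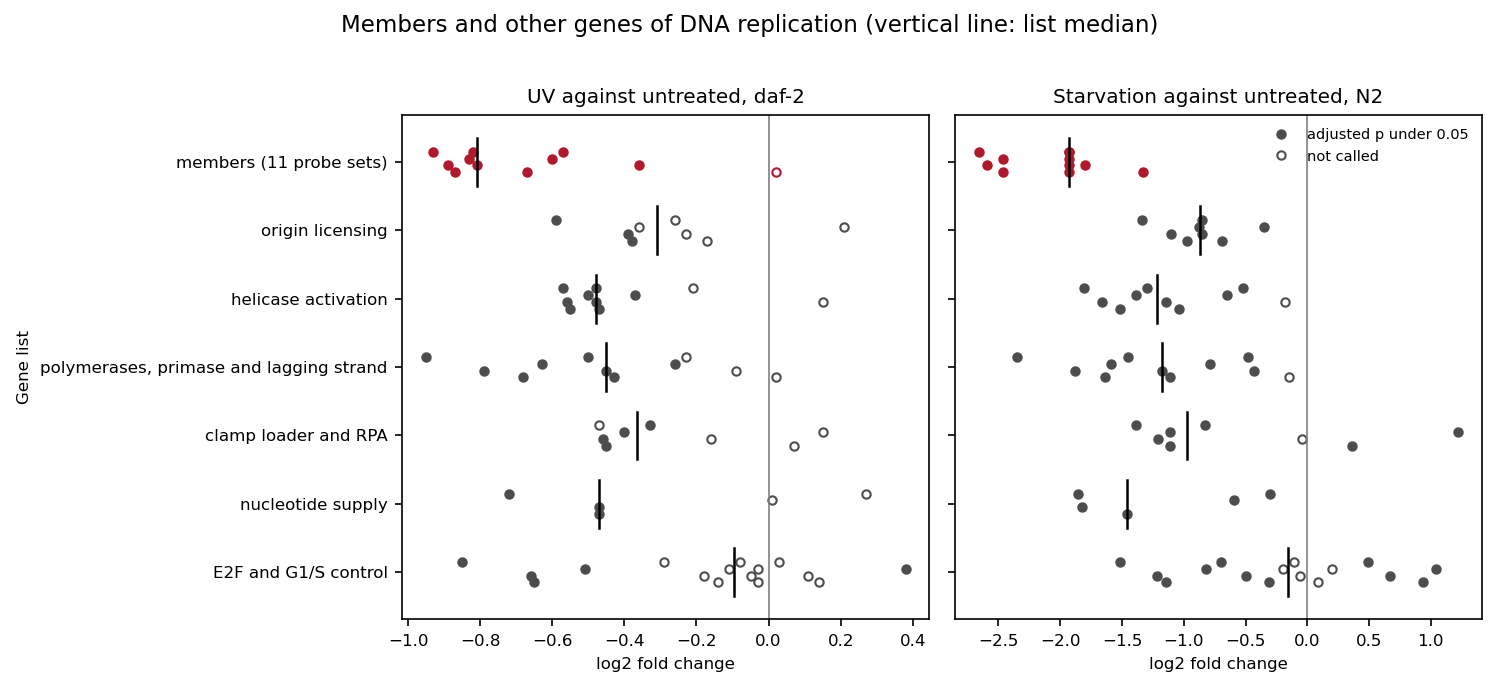
Log2 fold change (horizontal axis) of each measured gene, 1 row a list, with the 11 member probe sets in the top row, for UV against untreated in daf-2 (left) and starvation against untreated in N2 (right). Filled points had an adjusted p under 0.05, and short black lines mark the medians. The members' median is -0.81 on the left and -1.93 on the right, and every other list's median lies closer to 0 on both sides.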

How the data were processed

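Total RNA from whole L1 larvae was extracted with Trizol, per the labels' protocols, and hybridized with a biotin label to the Affymetrix array of the C. elegans genome. The submitters' processing notes name Affymetrix Power Tools. Its version and summarization algorithm were not stated in the sources used here. The deposited table holds log2 values for 22625 probe sets and 36 arrays. The log2 unit was read from the range of the deposited values, and the values were used as the authors deposited them, since they were already on one scale between arrays. All columns were mapped to samples.

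The 77 control probe sets were left out. Symbols came from the platform's annotation, updated by gene identifier, and 20766 probe sets carried 1 symbol, 887 several and 895 none. One limma 3.58.1 model (R 4.3.3) had a mean for each of the 12 groups, 24 residual degrees of freedom and moderated variances with an intensity trend. P-values were adjusted by the Benjamini-Hochberg method over 22548 probe sets and called under 0.05, and SEs use the moderated variance. An interaction is the difference between the responses of 2 strains. The code was tested on simulated data. No pair of arrays held identical values. The number of arrays limits the precision.

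Text names every member probe set, at most 4 list genes a comparison (the largest called changes without overlap) and the 6 non-members most like the members. The members and lists were chosen with earlier results of these data known. The 45 alternatives were 9 other processings and the removal of each array in turn.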

Additional observations from a re-analysis of the deposited data

Results flagged for a closer look

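In the group of 4 starved daf-2;daf-16 arrays, replicate 4 lay far from the others for mcm-7 (193260_s_at), with 6.74 beside 7.42, 7.32 and 7.39. Its gap to the nearest array was 0.85 of the range of the group, above Dixon's 95% critical value for 4 samples. The check covered the 11 probe sets in this 1 group, groups of 3 and of 2 were not checked, and chance marks about 1 in 20 probe sets so checked.

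The UV response differed between strains by the interaction term for 5 pairs of probe set and comparison. Set against N2, the log2 response of daf-2 differed by -0.74 for pcn-1, -0.57 for rnr-1, -0.56 for mcm-7 (193260_s_at) and -0.55 for mcm-4. Set against daf-2;daf-16 it was -0.83 for rnr-1.

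The starvation response of daf-2 was smaller in size than that of N2, with differences of 0.98 for rnr-1, 0.86 for mcm-7 (193260_s_at), 0.84 for mcm-7 (173401_s_at), 0.72 for rnr-2, 0.70 for mcm-3 (171893_x_at), 0.63 for mcm-2, 0.62 for mcm-5 and 0.55 for mcm-4. Set against daf-2;daf-16, the differences were 0.80 for mcm-7 (173401_s_at), 0.78 for mcm-5, 0.78 for rnr-1, 0.72 for mcm-3 (171893_x_at), 0.69 for mcm-7 (193260_s_at), 0.60 for mcm-4, 0.57 for pcn-1, 0.51 for rnr-2 and 0.47 for mcm-6. The interactions share arrays, so these are not separate observations of one another.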

How the results depend on the processing

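Of 3806 pairs of a member result and an alternative, 3626 kept their direction and their side of the threshold, 92 lost the call, 88 gained it and 0 reversed. The 8 counts of starvation against untreated and UV against starvation stayed at 11 except without probe sets marked as shared, where only mcm-6 is left and each of the 8 counts is 1. In that setting the count was 1 for UV in daf-2 and for the starvation response of daf-2 against daf-2;daf-16, and 0 for UV in daf-16, daf-2;daf-16 and N2, for untreated daf-2 against N2, for the UV response of daf-2 against daf-2;daf-16 or N2 and for the starvation response of daf-2 against N2. The fewer members tested set these counts.

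With array weights the counts were 7 for UV in N2, 1 for UV in daf-16, 2 for untreated daf-2 against N2, 2 for untreated daf-2 against daf-2;daf-16, 4 for untreated daf-2;daf-16 against N2, 8 and 3 for the UV response of daf-2 against N2 and against daf-2;daf-16, and 6 for the starvation response of daf-16 against N2. With only the groups compared they were 0 for UV in daf-16, 4 for UV in daf-2;daf-16, 8 for the UV response of daf-2 against N2 and 5 for the starvation response of daf-16 against N2. In that setting the starvation response of daf-2 against daf-2;daf-16 lost the calls of mcm-4, pcn-1 and mcm-6 (limma's adjusted p = 0.053, 0.069 and 0.15). Without the 3 arrays that stood apart the counts were 6 for UV in N2, 1 for untreated daf-2 against daf-2;daf-16, 4 for untreated daf-2;daf-16 against N2, 8 for the UV response of daf-2 against N2 and 5 for the starvation response of daf-16 against N2. Quantile normalization gave 1 for UV in daf-16, and median centring 2 for the UV response of daf-2 against N2. The cause of these shifts was not tested.

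Whether the replicate numbers of the labels pair the arrays is not settled. In 0 of 16 contrasts did every same-number correlation exceed 0.1 (range -0.4 to 0.43). A single low value fails that rule, so it cannot show that pairing is absent. The correlations were 0.43, 0.07 and 0.34 for starvation in daf-2, and 0.36, 0.09 and 0.18 for UV in daf-16. With the replicate block the counts were 7 for the UV response of daf-2 against N2, 1 for that of daf-16 against N2, 5 for the starvation response of daf-16 against N2 and 1 for untreated daf-2;daf-16 against N2.

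Leaving out 1 array at a time gave 0 to 2 for UV in N2, 0 to 2 in daf-16, 9 to 10 in daf-2 and 5 to 9 in daf-2;daf-16. It gave 0 to 1 for untreated daf-2 against N2, 0 to 2 for untreated daf-2;daf-16 against N2, 1 to 5 for the UV response of daf-2 against N2, and 7 to 9 and 7 to 10 for the starvation response of daf-2 against N2 and against daf-2;daf-16. Where starved daf-16 was left with 1 array, that array is assumed to vary like the other groups. Over all probe sets the count called moved by over 1.5 times in several of these settings. In the interaction of UV with daf-16 against N2 it was 417 as reported, 2444 with array weights and 38 with only the groups compared. The limits are the 2 to 4 arrays a group, the 10 probe sets that can match several transcripts, and RNA of whole larvae.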
